A study of Mus musculus with 8 samples.

Results

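Expression of 35 genes of T cell identity and T cell receptor signalling was measured in the lungs of adult mice after left pneumonectomy (PNY) and after sham surgery (SHAM). The genes were taken as a list of names, and each was read at the Affymetrix probe set that carries its symbol alone, or, where several do, at the one with the highest mean over the arrays. In all 32 of the 35 genes had such a probe set, out of 18193 genes on the array. The kinase gene Lck, the cytokine receptor chain gene Il2rg and the transcription factor gene Tcf7 had none and were not analysed here. All mice were female C57BL/6 of 10 to 12 weeks from 1 supplier. PNY mice had their left lung ligated at the hilum, and SHAM mice had the same thoracotomy, with the chest held open for a few minutes and no lung removed. Both groups received the same anaesthesia, ventilation, antibiotic and buprenorphine. Lungs were perfused and taken 6 hours or 1, 3 or 7 days after surgery, and lung tissue of 8 mice was pooled for each of the 8 arrays, so each surgery had 1 array per time point. No array measures the spread between mice.

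T cells recognise peptide on MHC molecules with a receptor whose variable chains cannot signal alone. The CD3 proteins and the zeta chain (Cd247) carry the signal into the cell, the coreceptors CD4 and CD8 bring the kinase Lck to the receptor, and the kinase ZAP-70 then phosphorylates the adaptors LAT and SLP-76 (Lcp2). Costimulatory receptors such as CD28 add to this signal and CTLA-4 restrains it. T cells arise in the thymus, where developing cells express both CD4 and CD8 together with the recombinase genes Rag1 and Rag2, and mature T cells then recirculate through lymph nodes, blood and tissues such as the lung under the guidance of receptors such as CCR7. In a whole lung sample, fewer T cells and less RNA per T cell cannot be told apart.

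The PNY array of 1 day stood apart from the other 7 by its thymus genes. Mean differences of the 16 genes at least 1.5-fold higher on it are given with and without it. So are the main counts over the 4 time points. Leaving it out keeps the SHAM array of 1 day unless both are named. Rag1 had a log2 level of 9.60 on that array, against 2.56 to 3.62 on the 7 others, where the lowest value of the whole data set was 2.00. Of 14 measured genes of developing thymocytes 11 exceeded SHAM by 1.5-fold or more at 1 day, with a median log2 difference of 1.59. The sum of their log2 levels was 101.84 on the PNY array of 1 day, 73.49 to 77.27 on the other PNY arrays and 75.75 to 78.98 on the SHAM arrays. Of 8 measured genes of thymic stroma 3 were also at least 1.5-fold higher there, the epithelial genes Prss16, Ccl25 and Psmb11. Psmb11 lay above SHAM at 3 and 7 days too. The thymic transcription factor genes Foxn1 and Aire were not higher at 1 day. The T cell receptor chains themselves were read at only 1 of 14 listed genes, Tcra, whose level was 2.60 to 2.95 in PNY and 2.56 to 3.23 in SHAM, near the lowest value of the data, so the receptor is described here by its CD3 and zeta chains. The tissue had the markers of lung, since 8 genes of alveolar and airway epithelium had a mean log2 level of 13.03 to 13.23 in PNY and 13.03 to 13.13 in SHAM.

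Promoter windows from RefSeq (GRCm38.p6, 250 bases before to 50 after each start) were matched for 21 of the 32 genes. The windows of the 3 CD3 genes and of Cd8a are shown because these chains define the receptor complex and the coreceptor and were among the genes that moved together at 1 day. Cd3g and Cd3d are transcribed away from each other on chromosome 9 with their starts 1355 bases apart, and Cd3e starts 27825 bases beyond Cd3d. Capitals mark matches to 6 short motifs on either strand. The ETS factors, which act in most blood cells, were searched by the letters AGGAAG. For the RUNX factors, which regulate the coreceptor genes, the letters were TGTGGT. The E box, bound by E proteins in thymocytes, was taken as CAGNTG. For TCF-1 and LEF-1, the partners of the Wnt pathway in T cells, TCAAAG was used. The GATA factors were searched by AGATAA. The TATA box of core promoters was taken as TATAAA, and no match overlapped another in the windows shown.
Cd3d, chr9:44981536-44981835, plus strand: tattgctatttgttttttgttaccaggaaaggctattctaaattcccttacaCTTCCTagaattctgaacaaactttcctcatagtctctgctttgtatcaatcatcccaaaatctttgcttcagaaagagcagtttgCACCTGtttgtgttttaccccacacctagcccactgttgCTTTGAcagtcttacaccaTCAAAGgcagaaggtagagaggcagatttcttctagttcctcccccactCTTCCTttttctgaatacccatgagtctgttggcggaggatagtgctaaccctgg
Cd3e, chr9:45009562-45009861, minus strand: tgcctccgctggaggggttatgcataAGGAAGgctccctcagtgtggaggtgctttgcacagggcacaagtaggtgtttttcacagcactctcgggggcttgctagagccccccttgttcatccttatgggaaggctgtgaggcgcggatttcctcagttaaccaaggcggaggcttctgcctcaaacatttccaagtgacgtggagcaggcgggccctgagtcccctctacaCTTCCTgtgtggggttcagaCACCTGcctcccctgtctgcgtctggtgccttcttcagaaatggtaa
Cd3g, chr9:44980382-44980681, minus strand: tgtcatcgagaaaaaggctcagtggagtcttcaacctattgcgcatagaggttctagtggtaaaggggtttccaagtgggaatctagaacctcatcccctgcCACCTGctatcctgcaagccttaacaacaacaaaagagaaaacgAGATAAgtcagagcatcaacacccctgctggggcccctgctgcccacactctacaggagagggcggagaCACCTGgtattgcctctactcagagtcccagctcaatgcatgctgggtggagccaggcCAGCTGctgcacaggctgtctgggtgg
Cd8a, chr6:71373177-71373476, plus strand: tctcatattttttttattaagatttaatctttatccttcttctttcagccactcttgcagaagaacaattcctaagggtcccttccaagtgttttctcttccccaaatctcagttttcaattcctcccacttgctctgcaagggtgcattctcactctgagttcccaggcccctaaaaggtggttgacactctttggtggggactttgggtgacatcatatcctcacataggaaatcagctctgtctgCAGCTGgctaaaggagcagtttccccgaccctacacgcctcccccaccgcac
The window of Cd3d held 2 ETS, 1 E box and 2 TCF/LEF matches, that of Cd3e 2 ETS and 1 E box, that of Cd3g 3 E boxes and 1 GATA, and that of Cd8a 1 E box. None of the 4 held a TATA box or a RUNX match. Over the 26 windows of the 21 genes, 53.8% held an ETS match, against 35.4% of all 32851 windows of this length, 38.5% a TCF/LEF match, against 16%, and 65.4% an E box, against 51.4%. For RUNX these shares were 15.4% and 16.8%, for GATA 15.4% and 11.2%, and for the TATA box 15.4% and 13.6%. A match is a description of letters and not of a bound factor.

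Over the 4 time points no gene of the 32 passed the rank product test, which asks for P below 0.001 and a 1.5-fold change in either direction and takes the time points as replicates. Of all 18193 genes 0.506% passed as higher in PNY and 0.0605% as lower. At a rank product P-value under 0.05, 8 of the 32 were higher (all genes 4.78%) and 9 lower (3.65%), with Cd8b1 and Sh2d1a in both counts, since the test asks separately for high and for low ranks. Without the PNY array of 1 day these counts were 0 higher (all genes 4.96%) and 13 lower (3.99%), Cd3d, Cd3e, Cd3g and Cd247 among the 13. By limma no gene had an adjusted p under 0.05, here or among all genes. Icos alone had an unadjusted p under 0.05 (1 of the 32, all genes 2.17%), and without the PNY array of 1 day 2 others did in its place, Cd3e and Sh2d1a (2.85%). With time point as a block 4 did, namely Icos, Ctla4, Cd2 and Il2rb, all lower in PNY (all genes 5.90%), again with no adjusted p under 0.05. The exact permutation test over the 70 splits of the arrays (two-sided, smallest possible p 0.0286) gave its smallest p for Ctla4, 0.0571. In no gene were the PNY and SHAM arrays fully separated (all genes 1.58%).

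The 32 differences (log2 level in PNY minus that in SHAM) had a median of -0.23 at 6 hours and 0.61 at 1 day, and then of -0.14 and -0.37 at 3 and 7 days, while the median over all genes lay between -0.0013 and 0.017. At 1 day 27 of the 32 genes were above 0 (all genes 53.6%), and at 7 days 28 were below 0 (50.2%). In 19 of the 32 the PNY level lay below SHAM at 6 hours, 3 days and 7 days alike (all genes 11.7%), and 16 of these 19 lay above SHAM at 1 day (5.71%). Averaged over the 4 time points 17 of the 32 were above 0, with a median of 0.04. Without the PNY array of 1 day 5 were above 0 and the median was -0.16, and without both arrays of 1 day these were 4 and -0.21.

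**Figure D1:**
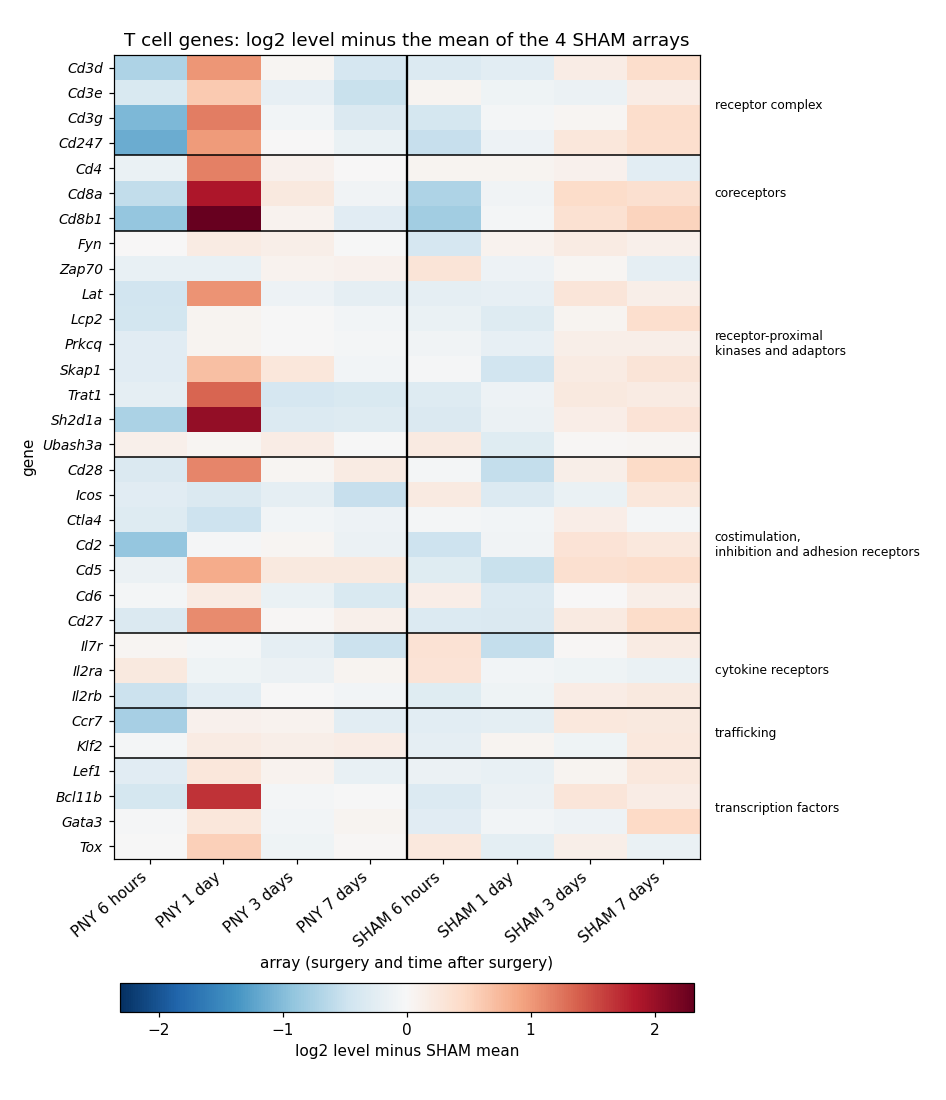
Log2 level of each of the 32 T cell genes (rows, grouped by role) on each array (columns, PNY left and SHAM right), minus the mean of the 4 SHAM arrays (colour scale, log2 units). The PNY array of 1 day is red for the receptor complex, the coreceptors and a part of the adaptors, costimulatory receptors and transcription factors, and the PNY array of 6 hours is blue for most genes.

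At 1 day 16 of the 32 T cell genes exceeded SHAM by 1.5-fold or more, against 1.88% of all genes, and none was 1.5-fold lower (all genes 1.09%). In each of the 16 the PNY array of 1 day was the highest of the 8 arrays, as it was in 18 of the 32 altogether (all genes 10.4%), and in 12 it lay at least 1.5-fold above the highest of the other 7 (0.236%). There is 1 array per group at a time point and thus no test of these differences. The counts by role were 4 of 4 receptor chains, 3 of 3 coreceptors, 4 of 9 kinases and adaptors, 3 of 7 costimulatory, inhibitory and adhesion receptors, 0 of 3 cytokine receptors, 0 of 2 trafficking genes and 2 of 4 transcription factors. The thymus markers named above moved on the same array. So did B cell genes, since 11 of 11 were above SHAM at 1 day with a median difference of 0.34, 2 of them by 1.5-fold or more (Ms4a1, the antigen CD20, at 0.68 and the scaffold gene Bank1 at 0.66), and 7 of 11 were above SHAM at 1 day and below it at the 3 other time points. The part of these genes in the differences was not tested.

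**Figure D2:**
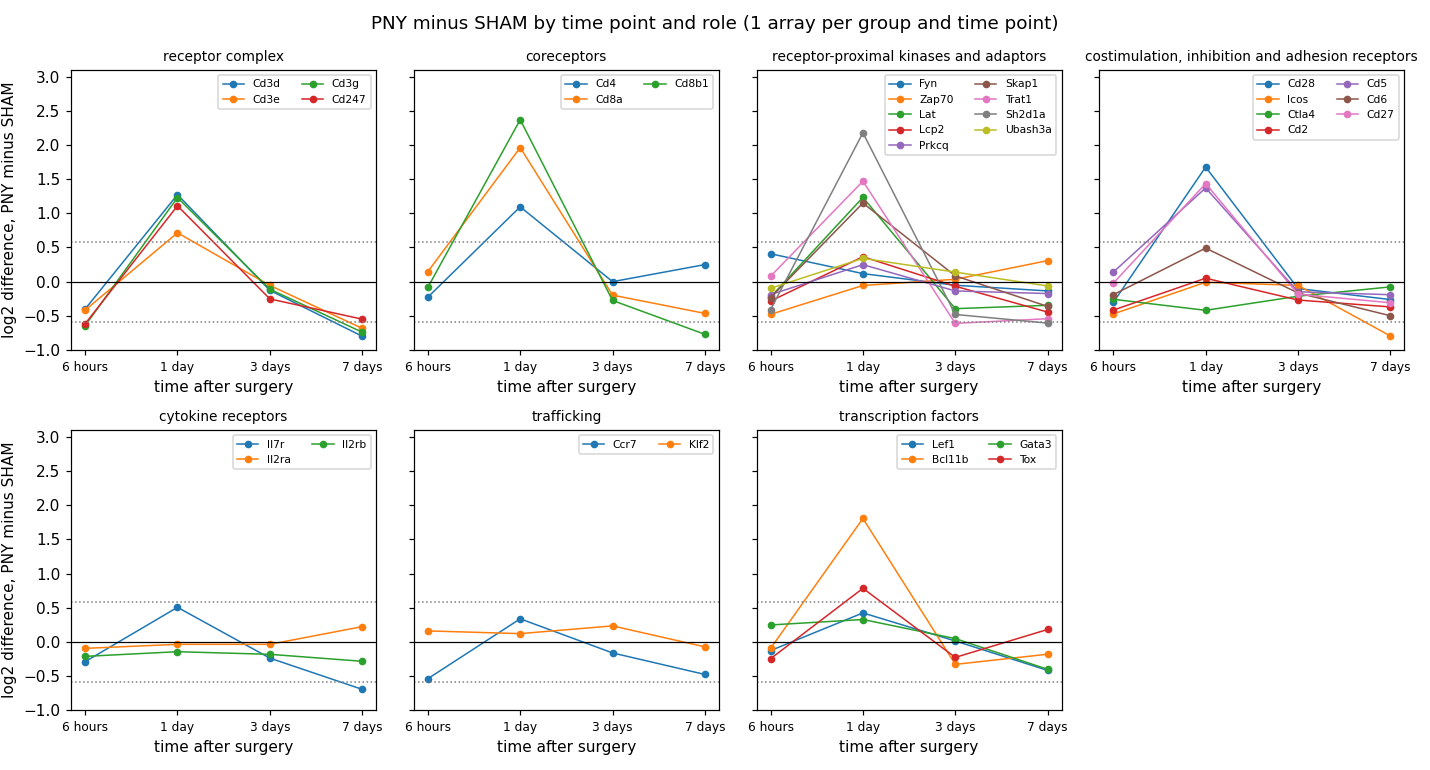
Log2 difference, PNY minus SHAM, at each time point (horizontal axis) for each of the 32 genes, with 1 panel per role and dotted lines at a fold change of 1.5 either way. Each point sets 1 array against 1. The receptor chains and coreceptors peak at 1 day, and the cytokine receptors and trafficking genes stay within the dotted lines at 1 day.

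The 4 chains of the receptor complex moved alike. Cd3d, the CD3 delta chain, had log2 levels of 7.82, 9.56, 8.58 and 8.14 in PNY at the 4 successive time points, and of 8.22, 8.29, 8.70 and 8.94 in SHAM. Its PNY level was the lowest of all arrays at 6 hours and the highest at 1 day, with a 2.42-fold difference from SHAM at 1 day, while its SHAM levels were successively higher at each time point. Cd3e, the CD3 epsilon chain, had 7.87, 8.83, 8.04 and 7.71 in PNY, against 8.28, 8.12, 8.09 and 8.39 in SHAM. Apart from 1 day, its 3 other PNY levels lay below all 4 SHAM levels. Cd3g, the CD3 gamma chain, had 6.35, 8.57, 7.33 and 7.05 in PNY, against 6.99, 7.34, 7.44 and 7.79 in SHAM. Cd247, the zeta chain with most of the receptor's signalling motifs, had 5.34, 7.49, 6.51 and 6.35 in PNY, against 5.96, 6.38, 6.76 and 6.90 in SHAM. Cd3g and Cd247 were the only genes of the 32 at least 1.5-fold lower at 6 hours, with differences of -0.64 and -0.62, and 2 dim probe sets of Cd247 differed from the one used, at -0.07 and 0.42 at 1 day. The mean differences over time were -0.01 ± 0.90 for Cd3d, -0.11 ± 0.61 for Cd3e, -0.07 ± 0.91 for Cd3g and -0.08 ± 0.81 for Cd247 (SD of the 4 differences), each far smaller than its SD. Without the PNY array of 1 day they were -0.36, -0.35, -0.48 and -0.43.

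All 3 coreceptors were higher at 1 day, the CD8 chains most. Cd8b1, the CD8 beta chain, had log2 levels of 6.00, 9.20, 6.96 and 6.62 in PNY at the successive time points, against 6.08, 6.84, 7.23 and 7.39 in SHAM, a 5.16-fold difference at 1 day and the widest of the 32. Cd8a, the CD8 alpha chain, had 5.80, 8.26, 6.60 and 6.29 in PNY, against 5.66, 6.30, 6.80 and 6.75 in SHAM, or 3.89-fold at 1 day. In both, the 6 hour level was the lowest of the series in either surgery, and the levels at 6 hours, 3 days and 7 days overlapped between the surgeries. Of the 4 other probe sets of Cd8a, 3 were also higher at 1 day, by 0.98 to 2.50, and the remaining one was not (-0.02). At 6 hours the probe set used lay 0.15 above SHAM and these 4 differed by -0.20 to -0.91, so no direction is given for Cd8a there. Cd4, the coreceptor of helper T cells, had 6.56, 7.89, 6.82 and 6.74 in PNY, against 6.79, 6.79, 6.82 and 6.49 in SHAM. It was 2.14-fold higher at 1 day, and beyond that array its 7 levels spanned only 6.49 to 6.82, with no lower PNY level at 7 days. The mean differences were 0.31 ± 1.40 for Cd8b1, 0.36 ± 1.10 for Cd8a and 0.28 ± 0.58 for Cd4, and without the PNY array of 1 day -0.36, -0.15 and -0.02. The rank product P-values in the higher direction, 0.0080, 0.0077 and 0.040, did not reach the threshold.

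Among 9 kinases and adaptors 4 were at least 1.5-fold higher at 1 day. Sh2d1a, the adaptor SAP of the SLAM receptors, had log2 levels of 4.00, 6.78, 4.42 and 4.45 in PNY, against 4.41, 4.60, 4.90 and 5.06 in SHAM, a 4.52-fold difference at 1 day. The other 3 PNY levels of Sh2d1a lay below the SHAM levels of 1, 3 and 7 days, and the SHAM level of 6 hours lay among them. Trat1, a transmembrane adaptor that associates with the receptor complex, had 4.32, 5.88, 4.15 and 4.19 in PNY, against 4.24, 4.41, 4.76 and 4.73 in SHAM. At the probe set used, its PNY levels of 3 and 7 days were below all SHAM levels. Trat1 was the only gene of the 32 at least 1.5-fold lower at 3 days (-0.61). Its other, dimmer probe set differed by 1.25 at 1 day, -0.23 at 3 days and 0.04 at 7 days, with neither of these later PNY levels below all SHAM levels. Lat, the membrane adaptor that gathers the signalling complex, had 7.39, 8.87, 7.72 and 7.62 in PNY, against 7.61, 7.64, 8.11 and 7.96 in SHAM, or 2.35-fold higher at 1 day. Skap1, an adaptor in integrin activation by the receptor, had 5.67, 6.64, 6.20 and 5.87 in PNY, against 5.90, 5.49, 6.12 and 6.23 in SHAM, or 2.22-fold higher at 1 day. The SHAM array of 1 day was the lowest of the 8 for Skap1, so a part of its difference at 1 day lies on the SHAM side. Mean differences were 0.17 ± 1.34 for Sh2d1a, 0.10 ± 0.96 for Trat1, 0.07 ± 0.78 for Lat and 0.16 ± 0.69 for Skap1. Without the PNY array of 1 day they were -0.45, -0.32, -0.26 and -0.02. Without both arrays of 1 day they were -0.50, -0.36, -0.32 and -0.17.

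The other 5 genes of this role did not follow. The Src family kinase gene Fyn, the kinase gene Zap70, the adaptor gene Lcp2, the protein kinase C theta gene Prkcq and the phosphatase gene Ubash3a differed by -0.06 to 0.36 at 1 day. Zap70 was read at a probe set with levels of 8.68 to 8.95 in PNY and 8.64 to 9.16 in SHAM, and its 2 other probe sets opposed it in sign at 6 hours or 7 days, so no direction is given for it. Fyn, which many cell types express, had levels of 9.01 to 9.22 in PNY and 8.64 to 9.22 in SHAM, and the PNY range lay inside the SHAM range. Lcp2 and Prkcq lay below SHAM at 6 hours, 3 days and 7 days, with differences of -0.07 to -0.45 and of -0.14 to -0.19. At 1 day they lay above it, by 0.36 and 0.25.

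Of the 7 costimulatory, inhibitory and adhesion receptors 3 were at least 1.5-fold higher at 1 day. Cd28, the main costimulatory receptor of naive T cells, had log2 levels of 5.08, 6.54, 5.46 and 5.61 in PNY, against 5.38, 4.87, 5.56 and 5.87 in SHAM, or 3.20-fold higher at 1 day, where SHAM had its lowest level. Its other, slightly dimmer probe set differed by 1.76 at 1 day and by -1.11 at 7 days, where the one used differed by -0.26. Cd27, a costimulatory receptor of the TNF receptor family, had 5.41, 6.84, 5.78 and 5.87 in PNY, against 5.43, 5.41, 5.96 and 6.18 in SHAM. Cd5, a receptor that damps receptor signalling, had 5.12, 6.12, 5.48 and 5.48 in PNY, against 4.98, 4.75, 5.62 and 5.67 in SHAM. For Cd28 and Cd5 the SHAM level of 1 day was the lowest of the 8, so their differences of 1.68 and 1.37 exceed the height of the PNY array above the highest of the other 7, which was 0.68 and 0.45. Mean differences were 0.25 ± 0.95 for Cd28, 0.23 ± 0.81 for Cd27 and 0.29 ± 0.73 for Cd5. Without the PNY array of 1 day they were -0.04, -0.06 and 0.10, and without both arrays of 1 day -0.22, -0.17 and -0.07.

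Icos, a costimulatory receptor of activated T cells, had another course. Its log2 levels were 6.00, 5.94, 6.06 and 5.75 in PNY, against 6.48, 5.95, 6.12 and 6.54 in SHAM, so that the surgeries lay apart at 6 hours (-0.47) and 7 days (-0.79) and not at 1 or 3 days. Its mean difference of -0.33 ± 0.37 was the most negative of the 32 (limma adjusted p = 1.00, exact permutation p = 0.0857), and its 2 other probe sets differed by 0.40 and -0.03 at 7 days. Ctla4, the inhibitory counterpart of CD28, was taken up after its values were seen, as the gene with the smallest exact p. Its levels were 4.83, 4.66, 5.08 and 5.02 in PNY, against 5.09, 5.08, 5.29 and 5.10 in SHAM, with a mean difference of -0.24 ± 0.14. PNY was lower at each of the 4 time points, and 1 PNY level lay just above the lowest SHAM level. Cd6, an adhesion receptor, differed by -0.50 to 0.49 and its levels overlapped between the surgeries.

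Neither the cytokine receptors nor the trafficking genes were 1.5-fold apart at 1 day. Il7r, the interleukin 7 receptor on which naive and memory T cells depend, had log2 levels of 8.08, 7.98, 7.83 and 7.54 in PNY, against 8.36, 7.48, 8.07 and 8.23 in SHAM. It was 1.42-fold higher in PNY at 1 day and at least 1.5-fold lower at 7 days (-0.69), with a mean difference of -0.18 ± 0.50. Il2rb, the beta chain shared by the receptors of interleukins 2 and 15, had 6.96, 7.21, 7.45 and 7.39 in PNY, against 7.17, 7.35, 7.63 and 7.68 in SHAM. At the probe set used, PNY was lower at each time point by a like amount, -0.14 to -0.28 (mean -0.20 ± 0.06, the smallest SD of the 32). The 6 hour level there was the lowest in both surgeries. The other, dimmer probe set of Il2rb differed by -0.35, 0.05, -0.19 and -0.10 at the successive time points. Il2ra, the high-affinity chain that activated and regulatory T cells bear, was at 4.23 to 4.59 in PNY and 4.20 to 4.68 in SHAM, and its differences of -0.09 to 0.22 changed sign. Ccr7, the receptor that brings T cells into lymph nodes, had 7.28, 8.17, 8.14 and 7.81 in PNY, against 7.82, 7.83, 8.30 and 8.28 in SHAM. Its PNY levels of 6 hours and 7 days were below all SHAM levels, and its mean difference was -0.21 ± 0.40. Klf2, a transcription factor that keeps T cells quiescent and recirculating and is strongly expressed in endothelium too, had 11.55, 11.77, 11.72 and 11.76 in PNY, against 11.39, 11.65, 11.49 and 11.83 in SHAM, a mean difference of 0.11 ± 0.13.

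At the probe sets used, 2 of the 4 transcription factors were 1.5-fold higher at 1 day. Bcl11b, which commits thymus precursors to the T lineage, had log2 levels of 6.27, 8.36, 6.64 and 6.69 in PNY, against 6.37, 6.55, 6.97 and 6.87 in SHAM, or 3.49-fold higher at 1 day, and its 3 other probe sets were higher there by 1.22 to 2.10. Tox, which is needed for CD4 T cell development in the thymus, had 4.81, 5.36, 4.72 and 4.84 in PNY, against 5.06, 4.58, 4.95 and 4.66 in SHAM, or 1.72-fold higher at 1 day, with all 8 levels below the array median of 5.92. The mean differences were 0.30 ± 1.01 for Bcl11b and 0.12 ± 0.48 for Tox, and without the PNY array of 1 day -0.16 and -0.02. Lef1, a partner of the Wnt pathway in early T cells, and Gata3, a factor of helper T cells that innate lymphoid cells use as well, differed by 0.42 and 0.33 at 1 day and by -0.42 and -0.40 at 7 days. For Lef1 the PNY array of 1 day was the highest of the 8 by 0.02, and for Gata3 the SHAM array of 7 days was the highest. The other, dimmer probe set of Lef1 differed by 0.84 at 1 day and by -0.70 at 7 days, past a fold change of 1.5 at both.

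**Figure D3:**
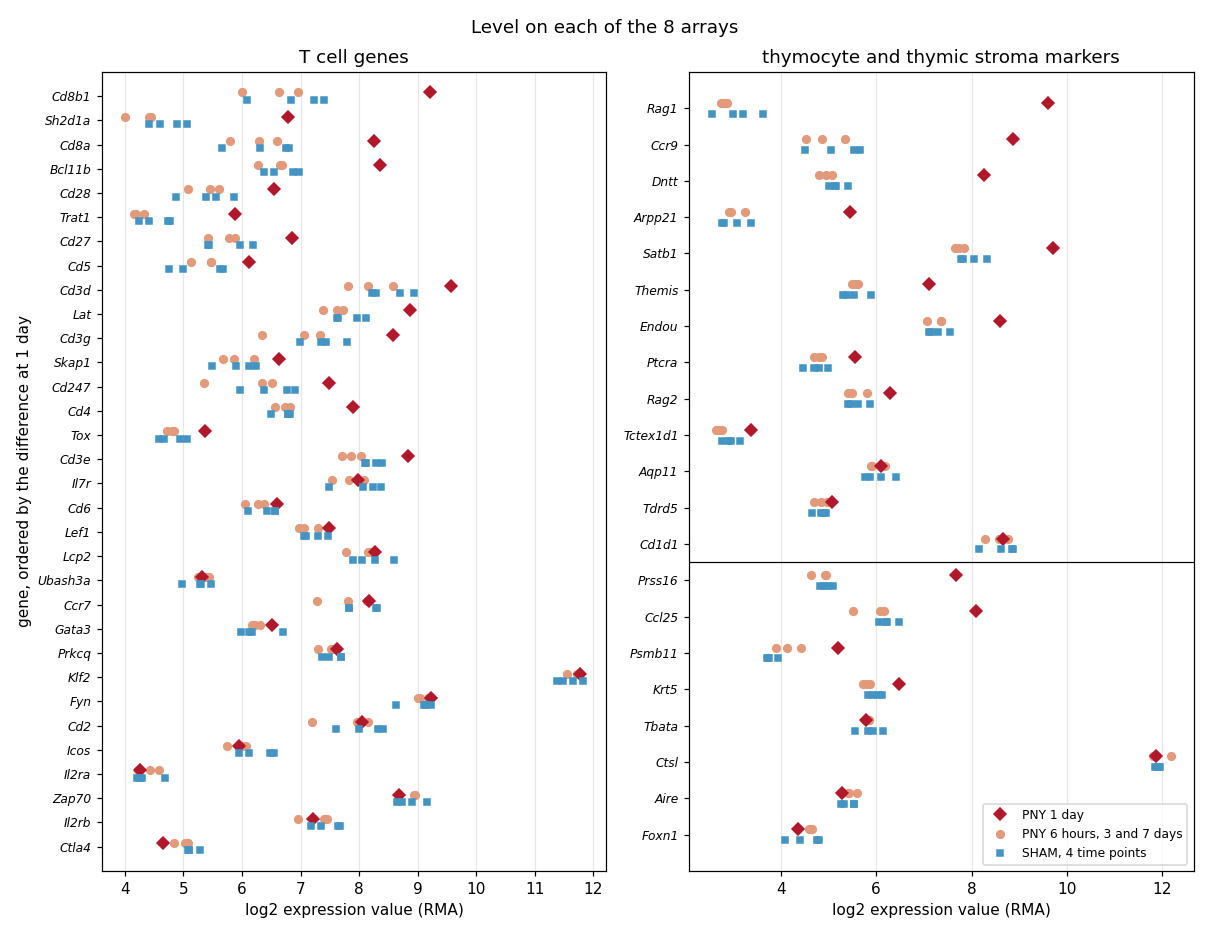
Log2 level (horizontal axis) of the 32 T cell genes (left panel, ordered by their difference at 1 day) and of the thymocyte and thymic stroma markers other than Cd8b1 (right panel, above and below the line) on each of the 8 arrays. Red diamonds are the PNY array of 1 day, orange circles the other 3 PNY arrays and blue squares the 4 SHAM arrays; in the upper rows of both panels the red diamond lies to the right of all other points.

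At 7 days the receptor chains and a few other T cell genes were lower in PNY than in SHAM. Of the 32 genes 7 were at least 1.5-fold lower (all genes 1.48%), namely Cd3d, Cd3e, Cd3g, Cd8b1, Sh2d1a, Icos and Il7r, and none was 1.5-fold higher (1.98%). Their differences were -0.80, -0.68, -0.74, -0.77, -0.61, -0.79 and -0.69. The SHAM array of 7 days had the highest SHAM level in 6 of the 7 (all but Il7r), and against the mean of the 4 SHAM arrays none of the 32 was 1.5-fold lower (all genes 1.21%), a comparison chosen after the data were seen. The PNY level of 7 days lay below all 4 SHAM arrays in 8 of the 32, which were Cd3d, Cd3e, Trat1, Icos, Ctla4, Cd6, Ccr7 and Lef1 (all genes 15.8%). B cell genes moved with them, since 8 of 11 were at least 1.5-fold lower at 7 days with a median difference of -0.63, led over all time points by the B cell receptor genes Cd79a (-0.36 ± 0.38) and Cd79b (-0.20 ± 0.38), the tetraspanin Cd37 (-0.23 ± 0.48) and Fcrla (-0.16 ± 0.42). None of 11 NK and cytotoxic genes was 1.5-fold lower at 7 days, though all 11 were below 0 with a median of -0.47. The part of these lymphocyte genes in the result was not tested.

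At 6 hours 26 of the 32 genes were below SHAM (all genes 46.7%), 2 of them at least 1.5-fold (1.04%) and none 1.5-fold higher (0.682%). The PNY level of 6 hours was below all 4 SHAM levels in 15 of the 32 (all genes 16.8%), among them all 4 receptor chains, with Cd8b1, Lat, Sh2d1a, Cd2, Ccr7 and Bcl11b. Against the mean of the SHAM arrays, also a comparison chosen after the data were seen, 7 were 1.5-fold lower (2.02%). The SHAM array of 6 hours was itself low for many of these genes, since 6 hours was the lowest time point in both surgeries in 12 of the 32 (all genes 22.5%), as it was in 10 of 11 B cell genes and 10 of 11 NK and cytotoxic genes. At 3 days the groups were closest, with 25 of the 32 below SHAM (all genes 47.2%), only Trat1 past a fold change of 1.5 (lower, all genes 0.511%), and none higher (1.14%).

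Time point itself was tested with both surgeries together, by limma's F test with surgery as a covariate. Of the 32 genes 1 passed, Cd2 (adjusted p = 0.0473), against 4.04% of all genes. Cd2, an adhesion receptor of T and NK cells taken up after this result was seen, had log2 levels of 7.20, 8.05, 8.14 and 7.96 in PNY, against 7.61, 8.00, 8.41 and 8.33 in SHAM, so that 6 hours was the lowest in both. Its differences were -0.42, 0.05, -0.27 and -0.37, and it did not pass the F test without the PNY or the SHAM array of 6 hours, 3 days or 7 days. Without the SHAM array of 1 day 13 of the 32 passed (all genes 3.88%), Cd2 and 12 of the 16 genes that were higher at 1 day, with the PNY array then the only one of that time point, and without the PNY array of 1 day 2 passed, Cd2 and Cd247 (3.46%). In the NK and cytotoxic list 7 of 11 genes passed, Gzma, Klre1, Ccl5 and Nkg7 among them, whose mean PNY minus SHAM differences were -0.34 ± 0.22, -0.27 ± 0.24, -0.27 ± 0.18 and -0.25 ± 0.21. The PNY minus SHAM difference at 3 and 7 days was set against that at 6 hours and 1 day by limma. None of the 32 passed, nor did any other gene (unadjusted p under 0.05 in 2 of the 32, Trat1 and Cd5, all genes 2.46%). Leaving out the PNY array of 6 hours leaves that of 1 day as the only earlier PNY array. A pass there is not read as a change of the difference with time. Without the PNY array of 6 hours 3 passed, Trat1, Sh2d1a and Bcl11b (all genes 0.0385%).

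Other genes of T cell receptor signalling differed less at 1 day than the 32. Of 38 measured genes of this pathway, a list of further kinases, adaptors, phosphatases and early targets, none passed the rank product test (all genes 0.506% higher, 0.0605% lower). At 1 day 5 were at least 1.5-fold higher (all genes 1.88%) and none 1.5-fold lower (1.09%). Their median difference at 1 day was 0.09, against 0.61 for the 32. The 2 lists differ in level, since 35 of the 38 lay above the median level of 5.92, against 23 of the 32. The part of other cell types in these levels was not tested. The 5 were Rasgrp1, the exchange factor that links the receptor to Ras (0.79), Egr2 (0.78) and Nr4a1 (0.68), transcription factors induced by receptor signals and in other cells, the early activation antigen Cd69 (0.77) and the phosphatase Ptpn22 (0.65). In none of the 38 was the PNY array of 1 day 1.5-fold above the highest of the other arrays (all genes 0.236%). The largest mean differences in size were those of Nr4a1 (0.34 ± 0.26), Egr2 (0.31 ± 0.48), the adaptor Sit1 (0.24 ± 0.22) and the ubiquitin ligase Cbl (0.16 ± 0.22). The F test of time point was passed by 2 genes, Nr4a1 and Cblb (all genes 4.04%). At 7 days 1 was 1.5-fold lower, the GTPase Rac2 (-0.59, all genes 1.48%).

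Gene lists of T cell subsets and of type 2 innate lymphoid cells were read at the same time points. Among genes of recirculating mature T cells, 3 of which (Ccr7, Il7r and Klf2) belong to the 32, 1 of 14 was at least 1.5-fold higher at 1 day. It was Gimap7 (0.87, all genes 1.88%). At 7 days 4 were at least 1.5-fold lower (all genes 1.48%). The median difference of this list was 0.26 at 1 day and -0.35 at 7 days. All 14 were above SHAM at 1 day (all genes 53.6%), and 7 of the 14 were above it then and below it at the 3 other time points (5.71%). Its largest mean differences were those of Ms4a4b (-0.32 ± 0.48), Dapl1 (-0.24 ± 0.71), Ccr7 and Il7r. The sum of the log2 levels of this list was 131.83 on the PNY array of 1 day, 124.60 to 130.78 on the other PNY arrays and 126.09 to 133.46 on the SHAM arrays, of which that of 1 day had 127.73. No gene of 9 for regulatory T cells, of 10 for effector and helper T cells or of 5 for type 2 innate lymphoid cells was 1.5-fold higher at 1 day. With 1.88% of all genes past that fold, these counts do not set the lists apart. Their median differences at 1 day were 0.07, 0.07 and -0.16. Some were near the low end of the data, such as Ifng (2.93 to 4.03) and Il4 (2.77 to 3.34). Foxp3, the factor that defines regulatory T cells, had 4.44, 4.04, 4.05 and 3.90 in PNY, against 4.24, 4.22, 4.55 and 4.09 in SHAM.

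The thymus genes are given one by one for comparison with the T cell genes. The recombinase genes Rag1 and Rag2 differed by 5.98 and 0.66 at 1 day, the terminal transferase Dntt, which adds bases at receptor gene junctions, by 2.84, the pre-receptor alpha chain Ptcra by 1.08, the thymocyte phosphoprotein Arpp21 by 2.69 and the chemokine receptor Ccr9 by 3.20. Themis, a regulator of thymocyte selection, differed by 1.73, the chromatin organiser Satb1 by 1.93, Endou by 1.45 and Tctex1d1 by 0.60, while Aqp11 (0.33), Cd1d1 (0.04) and Tdrd5 (0.22) did not reach a fold change of 1.5. Cd8b1 is the eleventh gene of that list past this fold and belongs to the T cell genes too. Of the 8 stroma genes the thymic protease Prss16 differed by 2.69, the chemokine Ccl25 by 1.61 and the thymoproteasome subunit Psmb11 by 1.43, and Krt5 (0.45), Tbata (0.23), Ctsl (0.03), Aire (-0.04) and Foxn1 (-0.04) did not reach it. Rag1 and Psmb11 passed the rank product test over the 4 time points as higher in PNY, although Rag1 was at or below 3.62 on every other array. Psmb11 lay above SHAM at 3 and 7 days as well, by 0.70 and 0.42. On the other 3 PNY arrays and on the SHAM arrays Rag1 and Arpp21 were near the low end of the data, at 2.56 to 3.62 and 2.76 to 3.38.

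**Figure D4:**
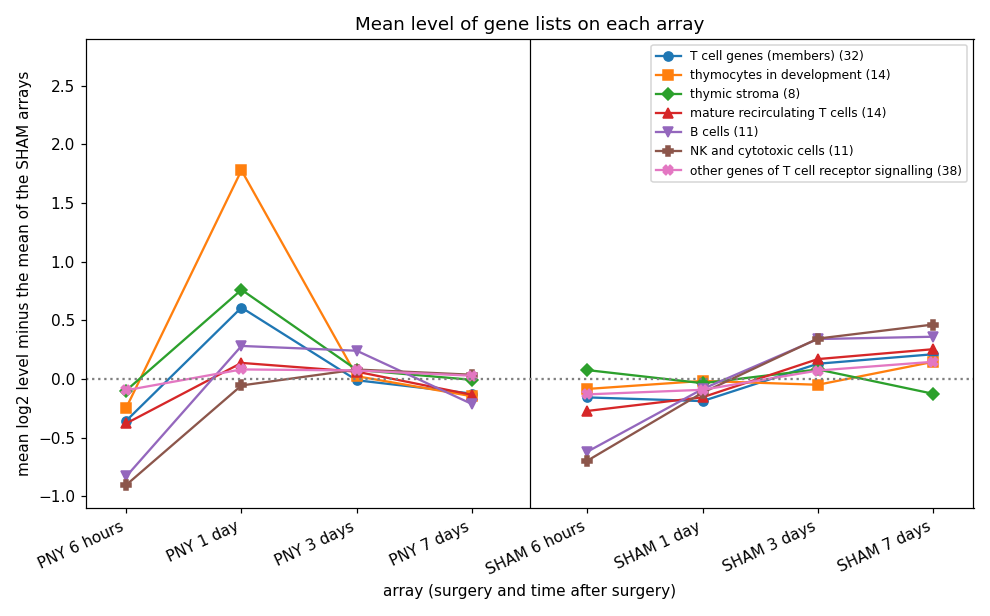
Mean log2 level of each gene list (number of measured genes in brackets) on each array, minus the mean of the 4 SHAM arrays; PNY arrays are on the left and SHAM arrays on the right, each in order of time. The thymocyte, thymic stroma and T cell lists peak on the PNY array of 1 day, while the B cell and NK lists are lowest at 6 hours in both surgeries.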

How the data were processed

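Each of 8 Affymetrix arrays (4 PNY, 4 SHAM) held RNA of lung tissue pooled from 8 mice. The deposited values are log2 expression levels that the authors obtained by RMA (version not given in the sources used here), with background correction, quantile normalization over arrays and a summary for each probe set. No source states the base of the logarithm, and the span of 2.00 to 14.82 is that of log2 RMA output. Without the 64 control probe sets, 45037 entered the tests unfiltered, and 34945 of them carry 1 symbol, 932 several and 9160 none. Precision is limited by the number of arrays.

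Rank products over the 16 PNY and SHAM array pairs (P-values from 1000 permutations, 100 for the alternatives) were written after the study's method in Python 3.11.15 (numpy 2.4.6, pandas 2.3.3). The fits with limma 3.58.1 in R 4.3.3 used Benjamini-Hochberg adjustment over all probe sets. Exact permutation tests used scipy 1.17.1 and figures matplotlib 3.10.9. The rank product and limma steps were tested on simulated data. A fold change is the log2 difference back on the linear scale. Every p-value compares pools taken at different times, so variation among mice, averaged within each pool, cannot be told apart from that between time points.

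The members and lists were chosen with earlier results of these data known. Values on every array are given for members at least 1.5-fold apart at any time point, which were 18, and for the 2 of each role with the largest mean difference in size. In the lists the text takes up gene by gene, the 4 with the largest mean difference and those past the rank product threshold are named, and all thymocyte and stroma genes. Other lists are given by counts. PNY and SHAM arrays of the same time point deviated together from their group means (r of 0.30 to 0.60 over probe sets, against -0.51 to 0.34 for different time points), so time point pairs the samples, and it served as a block in an alternative. The other alternatives were another scaling, a filter at the median level of 5.92, averaging the probe sets of a gene, other thresholds, leaving out arrays or time points, and 2 other references for single time points added after the data were seen.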

Additional observations from a re-analysis of the deposited data

Results flagged for a closer look

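Among the 64 sets of 4 arrays (32 genes in PNY and in SHAM) 4 had 1 array far from the other 3 by Dixon's criterion. The criterion flags 1 in 20 independent sets by chance. These sets share the same arrays, so the count is not read against that share. The PNY array of 1 day was the far one for Trat1, at a log2 level of 5.88 against 4.15 to 4.32 on the other PNY arrays, and for Sh2d1a, at 6.78 against 4.00 to 4.45. In SHAM, Cd4 was low on the array of 7 days, at 6.49 against 6.79 to 6.82 on the others, and Ctla4 was high on the array of 3 days, at 5.29 against 5.08 to 5.10.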

How the results depend on the processing

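The count of 0 of the 32 T cell genes past the rank product threshold, in either direction, was the same in all 20 alternatives run. Of these, 12 left out 1 array or both arrays of a time point. The count of 0 by limma was the same in its 18. Of all genes, no alternative called more than 154 higher or 38 lower by rank product, or more than 1 by limma. With so few of all genes called, counts of 0 do not set the 32 apart. The replicate block of time point changed neither count (0 members higher, 0 lower and 0 by limma). The sign-flip test, paired by time point, also called 0, since its smallest possible p is 0.125.

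The F test of time point called 1 gene, and 0 after quantile normalization once more and 2 among probe sets above the median level. Leaving out 1 array gave 0 to 13, with 0 without any array of 6 hours, 3 days or 7 days, 2 without the PNY array of 1 day and 13 without the SHAM array of 1 day. The comparison of later with earlier differences called 0 by limma and 0 with the replicate block. Leaving out 1 array leaves a single array for 1 surgery in 1 phase. The count without the PNY array of 6 hours, given above, is therefore not read as a change with time. No other such count is given.

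At 1 day the 16 genes that were 1.5-fold higher became 10 among the 23 above the median level, where fewer genes are tested, and at a fold change of 1.2 there was 1 gene lower. At 6 hours the 2 genes lower became 1 with arrays centred on their median, 1 with probe sets of the same gene averaged, 0 at a fold change of 2, 12 at 1.2 (with 1 higher) and 7 against the mean of the SHAM arrays. At 3 days the 1 gene lower became 6 at a fold change of 1.2, and 0 at 2, above the median level, with probe sets averaged, against the mean of the SHAM arrays and outside the range of the SHAM arrays. At 7 days the 7 genes lower became 20 at a fold change of 1.2 (with 1 higher), and 0 at 2, against the mean of the SHAM arrays and outside their range. At the fold change of 1.2, 2223 of all 18193 genes were lower at 6 hours, 1283 at 3 days and 2008 at 7 days. Lower at 1 day were 1778, and higher were 1879 at 6 hours and 2166 at 7 days. The references of the SHAM mean and range were chosen after seeing the data. The cause of these shifts was not tested. Centring moved the share of higher among all probe sets past 1.5-fold at 6 hours to 57.4%, against 38.99% as deposited (57.7% after quantile normalization). With 1 array per group and time point, no difference at a single time point has an error.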
